A study of Mus musculus with 319 samples.

Results

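The 3 Rps3 classes are a division of all 319 F2 muscle arrays by the level of 1 probe for Rps3 (gene ID 27050), which encodes a protein of the small ribosomal subunit. The values that chose the members are the log2 ratios of that probe, and arrays were selected on them alone. An array was placed in the low class below a log2 ratio of -0.736, in the high class above 0.147 and in the middle class between them. The low class held 74 arrays (23.2%), the middle class 149 (46.7%) and the high class 96 (30.1%). A 1:2:1 division of 319 would put 79.75, 159.5 and 79.75 arrays in the classes. The levels of that probe by class are therefore a description and carry no test, whereas every other probe was fitted on class. Each array compared total RNA from muscle of an F2 animal with a pool made from equal portions of RNA of the samples. The parents were C57BL/6J and C3H/HeJ, both on an ApoE null background, so animals of every class lacked functional ApoE. Females and males were included, and all were fed a Western diet, rich in fat, from week 8 to week 24 of age. Neither a genotype nor a batch is given in the labels, so all arrays form 1 labelled group in which each animal is a replicate, and a class is not a genotype. The labels give the same animal number, 227, to 2 arrays, both in the low class, so 1 animal may have been counted 2 times. The design text counts 319 mice and the sample descriptions 330.

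Rps3 sits on the head of the small subunit, where messenger RNA enters the ribosome, and is also known as a DNA repair protein and a partner of the transcription factor NF-kB. Ribosomal proteins are assembled in equal numbers, and their genes are usually expressed together. In an F2 intercross each chromosome position is inherited as 1 of 3 genotypes, and genes near each other on a chromosome are inherited together, so that transcripts of neighbouring genes can vary together across animals.

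The class-defining Rps3 probe spanned a wide range in muscle. In the low class its lowest, median and highest log2 ratios of animal to pool were -1.64, -1.31 and -0.82. In the middle class they were -0.70, -0.22 and 0.14. In the high class they were 0.17, 0.45 and 1.42. The median of the middle class stood 1.09 log2 units (2.13-fold) above that of the low class, and the median of the high class stood 0.67 (1.59-fold) above that of the middle class. The middle median lay 0.21 above the midpoint of the outer medians. The lower boundary ran through sparse values, with -0.819 just below it, -0.698 just above it and 3 arrays within 0.1 log2 units. The upper boundary ran through dense values, with 0.141 and 0.173 on its sides and 26 arrays within 0.1. The low class thus stood apart on this probe while the middle and high classes ran into each other.

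**Figure D1:**
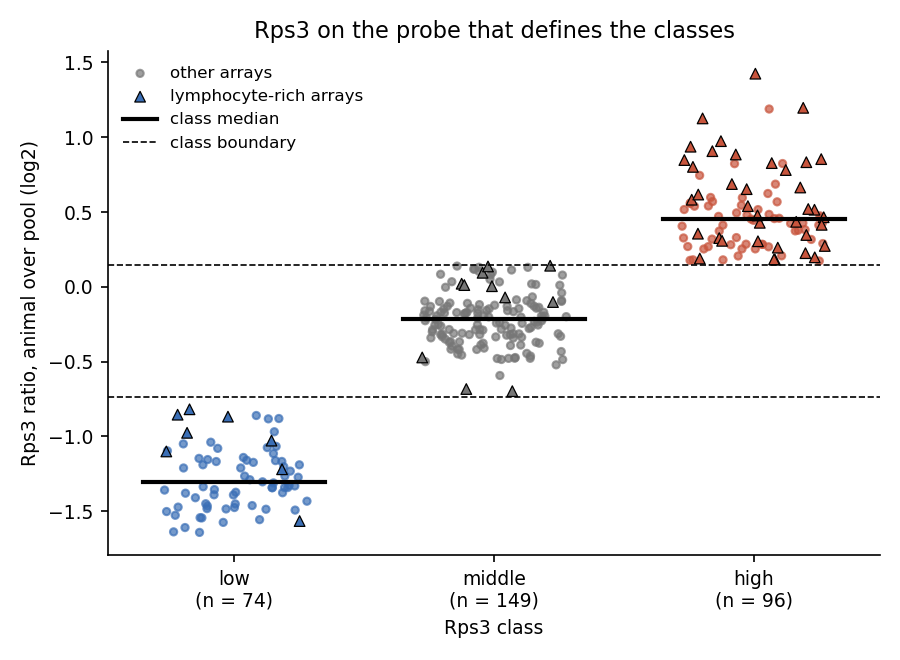
Log2 ratio of animal to pool for the class-defining Rps3 probe (vertical axis) in the low, middle and high classes, 1 point per array, with triangles for arrays rich in lymphocyte transcripts and dashed lines at the class boundaries. Of these arrays 8 fall in the low, 11 in the middle and 38 in the high class, and values are sparse at the lower boundary and dense at the upper one.

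The arrays as a whole carried further variation that moved with the classes. A score over 15 lymphocyte genes placed 57 arrays above its split, and these made up 10.8% of the low class, 7.38% of the middle class and 39.6% of the high class. The score ran from -0.87 to 1.85 with a median of -0.33 in the low class, from -0.84 to 2.50 with a median of -0.38 in the middle class, and from -0.71 to 2.93 with a median of 0.038 in the high class. Across probes, pairs of arrays had correlations from -0.638 to 0.891 (median 0.339), under -0.3 in 10.0% of the 50721 pairs. The labels state Cy3 for the animal and Cy5 for the pool. The Y-linked gene Eif2s3y had a median of -5.62 on 164 arrays and 1.08 on 155, and with the long side below, a positive ratio was read as more RNA in the animal. Of 15 skeletal muscle genes listed, 1 was measured, Pygm, the glycogen phosphorylase of muscle, so the tissue label could hardly be checked on defining markers. In whole muscle, fewer cells of a type and less RNA per cell cannot be told apart.

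A second probe for Rps3, which had no part in the rule, did not repeat the classes. In the low class its lowest, median and highest log2 ratios were -0.41, -0.056 and 0.54. In the middle class they were -0.79, -0.16 and 0.97. In the high class they were -0.80, -0.086 and 0.96. The 3 ranges overlapped almost wholly, and the slope per class was 0.028 ± 0.021 (SE; adjusted p = 0.306, limma). With 10 principal components as covariates, the slope was -0.087 (adjusted p = 1.72e-12), so its direction turned and it was called. The step of high over middle was nevertheless 0.16 (adjusted p = 3.54e-05). Within a class the probes could go together closely: their correlation was 0.905 over the 74 low arrays. It was 0.0872 over the 149 middle and 0.365 over the 96 high arrays. The rule limits the range of the class-defining probe within each class, and the middle and high classes mix arrays of different bands, described below. The values are therefore not compared between classes. Both probes name the same gene, and which transcript sequence each covers was not analysed here.

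Plotted against each other, the 2 probes separated the arrays into 3 parallel bands. The bands were read from the difference of the class-defining minus the second probe, split at the 2 widest gaps that leave at least 15 arrays on each side, a choice made after the values were seen. The low band held 78 arrays (24.5%), the middle band 160 (50.2%) and the high band 81 (25.4%), which lies closer to 1:2:1 than the classes do. The difference ran from -1.44 to -0.98 with a median of -1.24 in the low band, from -0.32 to 0.31 with a median of -0.087 in the middle band and from 0.38 to 1.22 with a median of 0.64 in the high band. No array lay within 0.1 of the centre of the lower gap, which was 0.651 wide. The upper gap was narrow, 0.0726 wide, with 4 arrays within 0.1 of its centre. Within bands the 2 probes had correlations of 0.938 in the low, 0.938 in the middle and 0.880 in the high band (n = 78, 160 and 81). A high correlation within bands is fixed in part by the construction, since a band holds the difference of these probes in a narrow range. Subtracting 1 probe from the other also removes what both share on an array.

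Bands and classes placed 39 of 319 arrays differently. The low band took in all 74 arrays of the low class and 4 of the middle class. The middle band held 135 arrays of the middle class and 25 of the high class. The high band held 10 arrays of the middle class and 71 of the high class. Arrays rich in lymphocyte transcripts were spread more evenly over the bands than over the classes, with 11 (14.1%) in the low, 26 (16.3%) in the middle and 20 (24.7%) in the high band.

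**Figure D2:**
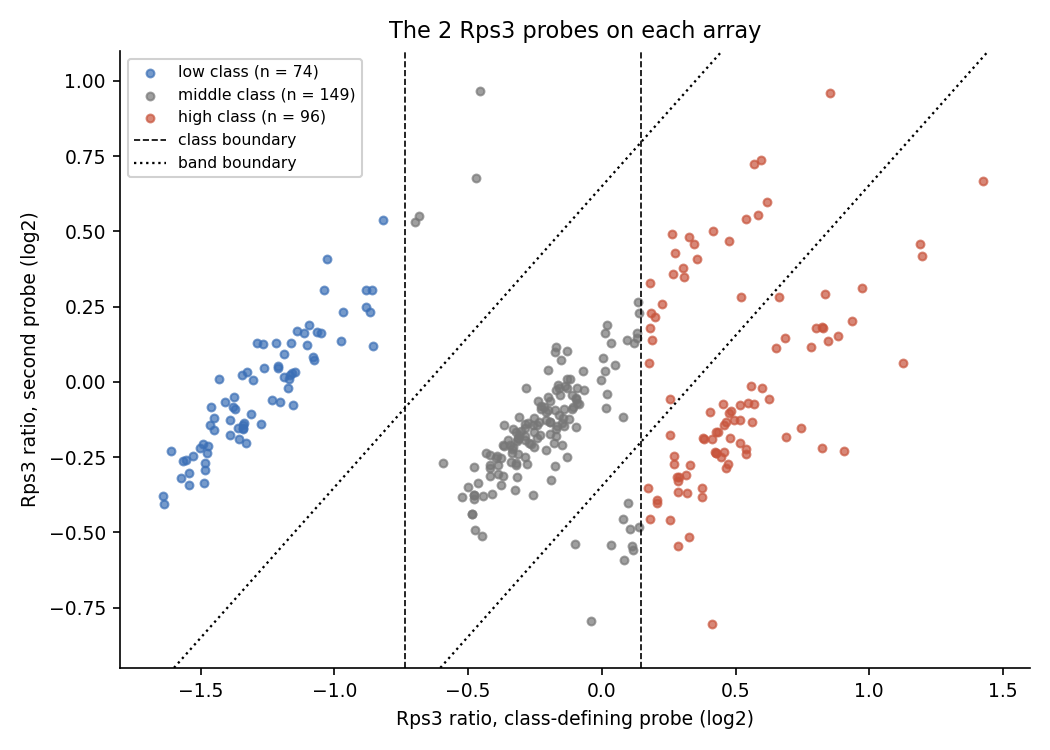
The class-defining Rps3 probe (horizontal axis) against the second Rps3 probe (vertical axis), both as log2 ratios of animal to pool, 1 point per array coloured by class, with dashed vertical lines at the class boundaries and dotted diagonal lines at the band boundaries. The 78, 160 and 81 arrays of the low, middle and high bands lie along parallel diagonals, and the vertical boundary between the middle and high classes crosses a pair of them.

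The promoter windows of 2 genes are shown because Rps3 defines the classes and Rpl12, a large-subunit protein, was the ribosomal protein gene of lowest p in the class fit. They come from RefSeq on GRCm38.p6, written 5′ to 3′ on the strand of the gene, with 250 bases before and 30 after the gene start. The Rps3 window is chr7:99483680-99483959 on the minus strand, and its capitals mark its longest exact repeat, 19 bases that follow directly on themselves. The Rpl12 window is chr2:32961462-32961741 on the plus strand, and its capitals mark a match to CGGAAG, the core bound by ETS factors, on the other strand.
Rps3: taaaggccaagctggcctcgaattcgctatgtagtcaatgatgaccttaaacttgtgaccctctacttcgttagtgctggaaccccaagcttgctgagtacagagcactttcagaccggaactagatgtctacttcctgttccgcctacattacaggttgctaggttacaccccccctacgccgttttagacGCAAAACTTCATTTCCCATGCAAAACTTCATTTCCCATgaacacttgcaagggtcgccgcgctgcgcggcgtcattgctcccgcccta
Rpl12: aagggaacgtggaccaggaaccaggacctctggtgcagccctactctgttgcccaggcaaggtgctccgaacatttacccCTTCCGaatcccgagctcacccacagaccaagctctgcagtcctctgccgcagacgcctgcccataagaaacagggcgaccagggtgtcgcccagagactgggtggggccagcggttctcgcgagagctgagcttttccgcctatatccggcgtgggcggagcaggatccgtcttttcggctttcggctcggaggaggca
CGGAAG was not found in the Rps3 window on either strand. CGGAAG occurred in 62.5% of the 32 ribosomal protein windows and in 17.9% of all 27025 windows. A match describes letters in a window and does not show that a factor binds there.

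Fitted on class as 0, 1 and 2, a large part of the transcriptome followed the Rps3 classes. Of 23189 probes 7995 (34.5%) passed an adjusted p of 0.05 in limma, 3425 higher (14.8%) and 4570 lower (19.7%) with class. With array medians subtracted the share of calls that were higher was 53.8%, against 42.8% here. On chromosome 7, where Rps3 lies, 400 of 1038 probes passed (38.5%), little above the 35.1% on other chromosomes (4145 of 11798). The steps between neighbouring classes differed widely in their counts. Middle against low gave 67 calls (0.289%), of which 40 were on chromosome 7 (3.85% of its probes), 2 on other chromosomes (0.017%) and 25 (0.241%) on probes without a gene name. High against middle gave 10690 calls (46.1%), with 46.1% on chromosome 7 and 47.3% elsewhere. Without the 57 arrays rich in lymphocyte transcripts, high against middle gave 4672 calls (20.1%) and the trend 804 (3.47%).

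Over the bands of the probe difference, the calls were fewer, and those with a known position lay mostly on chromosome 7. The trend over bands gave 210 calls of 23188 probes (0.906%), with 90 on chromosome 7 (8.68%), 33 on other chromosomes (0.28%) and 87 (0.84%) on unnamed probes. Of the 90, 40 were higher (3.86%) and 50 lower (4.82%) with band, and 82 were also called over classes. High against middle band gave 136 calls (0.587%), with 52 on chromosome 7 (5.01%) and 26 on other chromosomes (0.22%). Middle against low band gave 70 (0.302%), with 41 on chromosome 7 (3.95%), 37 of them shared with the corresponding step of the classes. With 10 principal components of the probes on other chromosomes as covariates, which by construction takes up variation of those probes, the class trend gave 344 calls (1.48%), 126 on chromosome 7 (12.1%) and 76 elsewhere (0.644%).

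Calls on chromosome 7 were densest near Rps3, which is gene 1255 of 2030 protein-coding genes in RefSeq order. In the step of middle against low class, 38.2% of the 34 probes within 25 genes of Rps3 passed, 15.4% of 26 probes at 26 to 50 genes and 13.8% of 29 at 51 to 100 genes. The share was 7.78% at 101 to 200 genes, 4.06% at 201 to 400, 0.254% at 401 to 800 and 0% beyond. Over the bands the shares in the same order were 55.9%, 30.8%, 20.7%, 15.6%, 10.3%, 3.82% and 0%. Calls over bands reached 669 genes before and 772 genes after Rps3. The class trend declined less evenly, with 64.7% of probes within 25 genes, 46.2% at 26 to 50, between 37.9% and 43.3% in the bins from 51 to 800 genes and 26.6% beyond. At an adjusted p under 1e-10, its shares in the same bins were 29.4%, 15.4%, 10.3%, 5.56%, 4.43%, 0.509% and 0%. The position of a gene was not used in any of these fits.

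**Figure D3:**
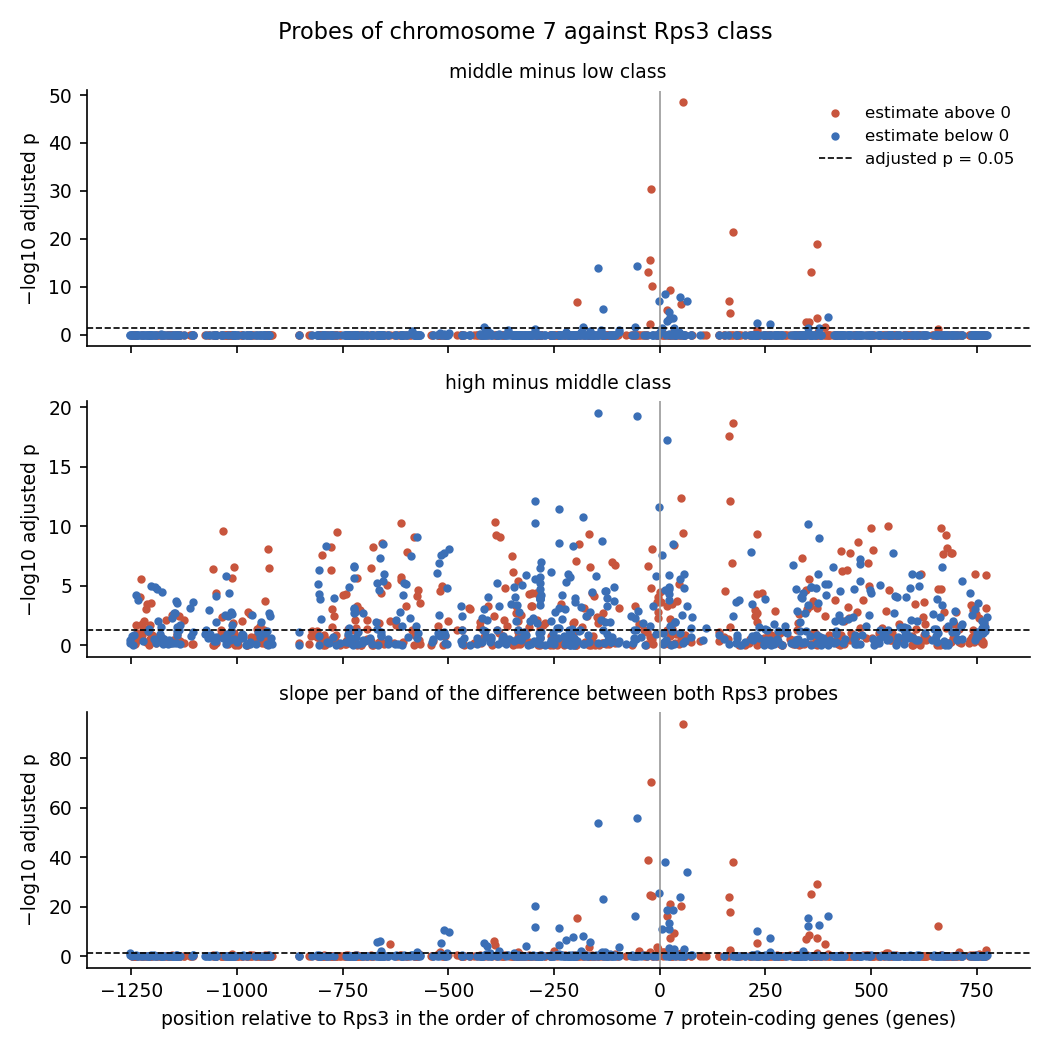
Minus log10 of the adjusted p (vertical axis) for named probes of chromosome 7 against distance from Rps3 in gene order (horizontal axis), in 3 panels: middle minus low class, high minus middle class and slope per band. In the panels for middle minus low class and for bands the high points gather around Rps3, whereas in the panel for high minus middle class they are spread along the chromosome.

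The chromosome 7 genes with the lowest p over classes moved in both directions. Pgap2, a Golgi protein that acts in the remodelling of lipid anchors of surface proteins, lies 55 genes after Rps3. Its lowest, median and highest log2 ratios were -1.42, -0.96 and -0.25 in the low class, -1.06, 0.0067 and 1.23 in the middle class, and -0.55, 0.42 and 1.65 in the high class. No low array reached the high median and no high array reached down to the low median. Its slope was 0.65 ± 0.031 log2 units per class (SE, 319 arrays; adjusted p = 3.58e-58) and 0.76 ± 0.024 per band (adjusted p = 9.32e-95).

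Trim30d, Trim34a and Trim12a belong to a cluster of tripartite motif genes of innate immunity, 173, 164 and 166 genes after Rps3. Trim30d lay at -2.22, -1.40 and 0.0018 (lowest, median, highest) in the low class, at -1.45, -0.61 and 1.18 in the middle class, and at -1.46, -0.031 and 2.05 in the high class. The medians stood higher at each step, and 2 low arrays passed the high median. Its slope was 0.78 ± 0.040 per class (adjusted p = 6.17e-53). Trim34a lay at -0.82, -0.47 and -0.064 in the low class, at -0.65, -0.24 and 0.38 in the middle class, and at -0.52, 0.0025 and 1.30 in the high class, with a slope of 0.30 ± 0.020 (adjusted p = 9.88e-36). No low array reached its high median. Trim12a rose by 0.34 ± 0.027 per class. Trim21, a ubiquitin ligase that binds antibodies inside cells, was chosen after its values were seen, lies 64 genes after Rps3 and fell instead, with a slope of -0.13 ± 0.014 (adjusted p = 2.01e-15).

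Me3, Ucp3 and Ngrn fell with class. Me3, the mitochondrial malic enzyme that makes NADPH, lies 54 genes before Rps3. Its lowest, median and highest log2 ratios were -0.073, 0.49 and 0.90 in the low class, -1.01, 0.13 and 0.84 in the middle class, and -1.09, -0.32 and 0.41 in the high class. No low array fell to the high median and no high array reached the low median. Its slope was -0.39 ± 0.022 per class (adjusted p = 1.24e-46). Ucp3, the uncoupling protein of muscle mitochondria, lies 18 genes after Rps3 and had medians of 0.43, 0.16 and -0.32 in the low, middle and high classes (slope -0.34 ± 0.026, adjusted p = 5.64e-29). Ngrn (neugrin), 146 genes before Rps3, lay at -0.25, 0.30 and 0.46 in the low class, at -0.41, 0.065 and 0.47 in the middle class and at -1.27, -0.16 and 0.32 in the high class. Its slope was -0.24 ± 0.013 (adjusted p = 1.86e-46), and 2 low arrays and 1 high array passed the median of the opposite class.

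Aqp11, Thrsp and Tmc5 rose with class. Aqp11, an aquaporin of intracellular membranes, 21 genes before Rps3, lay at -1.30, -0.57 and -0.038 in the low class, at -1.17, -0.0097 and 0.89 in the middle class, and at -0.59, 0.22 and 0.82 in the high class. No low array reached the high median and 1 high array lay below the low median, with a slope of 0.36 ± 0.023 (adjusted p = 4.68e-38). Thrsp, a nuclear protein that promotes fatty acid synthesis, lies 27 genes before Rps3 and had medians of -0.58, -0.11 and 0.21 in the low, middle and high classes (slope 0.35 ± 0.027). Tmc5, a transmembrane channel-like gene 373 genes after Rps3, had medians of -1.25, -0.24 and 0.084, with 1 low array as far down as -6.64 (slope 0.70 ± 0.056).

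The rest of the 15 named chromosome 7 genes changed by smaller amounts. Trpc2, a cation channel, rose by 0.16 per class, and Myo7a, an unconventional myosin of sensory hair cells, rose by 0.19. Gdpd5, a phosphodiesterase, fell by 0.15, the ubiquitin ligase Rnf121 by 0.16 and the organic anion transporter Slco3a1 by 0.19. Their adjusted p values lay between 1.53e-29 and 5.93e-20. All 15 were also called over the bands, with the same signs, where 8.68% of chromosome 7 probes were called. Bands and classes share the class-defining probe and place only 39 of 319 arrays differently. The 15 were picked by p over classes, so their calls over bands are not independent of that choice.

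**Figure D4:**
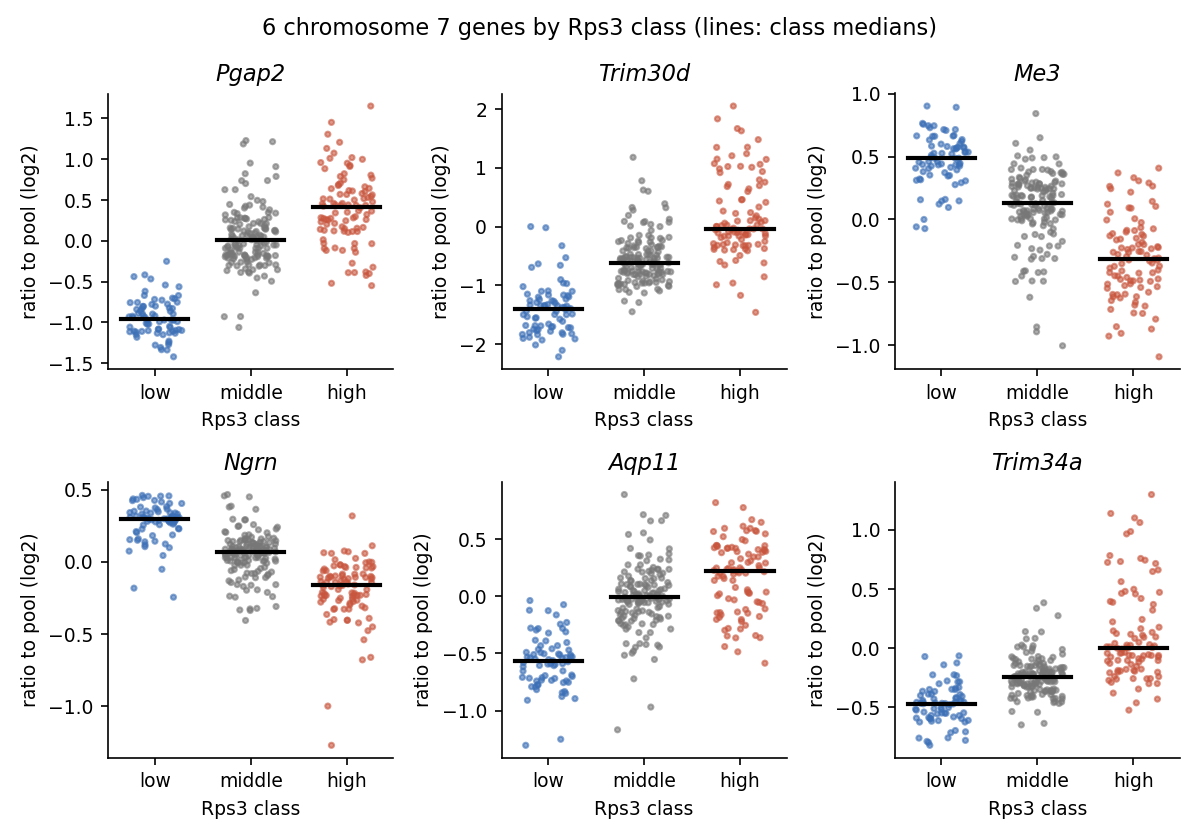
Log2 ratio of animal to pool (vertical axes) by Rps3 class (horizontal axes: low, middle, high) for the 6 named chromosome 7 genes of lowest p, 1 point per array and a line at each class median. Pgap2, Trim30d, Aqp11 and Trim34a climb and Me3 and Ngrn descend over the classes, and the ranges of neighbouring classes overlap in every panel.

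Further genes of chromosome 7 were chosen after their values were seen. Myod1, the transcription factor that commits cells to the muscle lineage, lies 294 genes before Rps3. Its lowest, median and highest log2 ratios were -3.24, 0.81 and 2.20 in the low band, -2.92, 0.29 and 2.19 in the middle band, and -3.02, -1.89 and 1.61 in the high band. All 3 bands covered nearly the same range and only the medians were set apart, with a slope of -1.0 ± 0.091 per band (adjusted p = 3.14e-21). Sox6, a repressor of slow-fibre genes 357 genes after Rps3, had class medians of -0.49, 0.097 and 0.18 (slope 0.25 ± 0.032, adjusted p = 2.71e-11). The others were Kcne3, a potassium channel subunit (slope -0.35 ± 0.033), the scaffold protein Iqgap1 (-0.30 ± 0.042), the protease Ctsc (-0.21 ± 0.033) and Clns1a, which takes part in the assembly of splicing particles (0.18 ± 0.019). A second Clns1a probe was not called over classes (0.055, adjusted p = 0.271) but was over bands (0.15, adjusted p = 0.0202).

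Of the 10 measured genes next to Rps3, 7 passed the test over classes, where 38.5% of chromosome 7 probes and 34.5% of all probes passed. Before Rps3, Dgat2, which makes triglycerides, rose by 0.19 per class (adjusted p = 1.42e-04) and Mogat2, which supplies diglycerides, by 0.063 (adjusted p = 0.0062). Gdpd5, the closest measured gene before it, fell by 0.15, while Map6 and Serpinh1, a microtubule protein and a collagen chaperone, rose by 0.053 and 0.098. After Rps3, the transporter Slco2b1 rose by 0.10 and the sialidase Neu3 fell by 0.18 (adjusted p = 3.98e-15). Xrra1 (0.028, adjusted p = 0.112), Rnf169 (-0.0073, adjusted p = 0.601) and Chrdl2 (0.061, adjusted p = 0.198) did not pass over classes. Over bands Xrra1 (0.054, adjusted p = 0.0215) and Chrdl2 (0.14, adjusted p = 0.0236) were called, and Mogat2 (adjusted p = 0.599), Slco2b1 (adjusted p = 0.367) and Rnf169 (adjusted p = 0.918) were not. The slopes of these neighbours thus ran from -0.18 to 0.19, below the size of the slopes of Pgap2 and Trim30d farther away.

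The number of probes whose middle class lay off the midpoint of the outer classes differed widely between fits. Over classes 6051 probes (26.1%) differed from the midpoint, 25.7% of those on chromosome 7 and 27.1% elsewhere. With 10 components as covariates 3 probes did (0.0129%), Pgap2, Trim30d and Aqp11, which lay 0.27, 0.20 and 0.13 log2 units above the midpoint. On the same classes 7 probes did without the lymphocyte-rich arrays. Over bands 3 probes did (0.0129%). They were Pgap2 (0.17 ± 0.033, adjusted p = 0.00439), Tmc5 (0.39 ± 0.076, adjusted p = 0.00439) and 1 probe without a gene name (0.49 ± 0.069, adjusted p = 2.13e-07), all with the middle band above the midpoint.

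On other chromosomes some of the 15 genes with the lowest p over classes kept a call over bands. Of all probes on those chromosomes 33 of 11798 (0.28%) were called over bands. The 15 were picked by p from the same arrays, so the 2 shares are not compared. Gpx2, a glutathione peroxidase of epithelia on chromosome 12, lay at -0.49, -0.16 and 0.34 (lowest, median, highest) in the low class, at -0.51, -0.060 and 1.92 in the middle class and at -0.27, 0.13 and 1.07 in the high class. Its slope was 0.17 ± 0.016 per class (adjusted p = 1.63e-18) and 0.15 per band (adjusted p = 5.28e-13). A second Gpx2 probe had a slope of 0.023 (adjusted p = 0.0516), and RefSeq places a transcribed pseudogene, Gpx2-ps1, on chromosome 7 with 14 genes between it and Rps3. A probe in sequence that a gene shares with its pseudogene would measure both, so the chromosome of the Gpx2 signal is uncertain.

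Of the remaining 14, Tdo2, which degrades tryptophan (chromosome 3, -0.13 per band, adjusted p = 1.28e-09), Lhx6, a transcription factor of developing neurons (chromosome 2, -0.073, adjusted p = 2.05e-13), Cracd, a regulator of actin (chromosome 5, -0.068, adjusted p = 3.63e-05), and Eci1, an enzyme of fatty acid oxidation (chromosome 17, -0.098, adjusted p = 0.00786), were lower with band. The other 10, Gnpat, Rpl12, Ndufa10, Smtn, Pacsin2, Reg3d, Itgb6, Clcn3, Gatad1 and Trak2, had adjusted p over bands between 0.0854 and 0.597. Gpx2 and Ramp3, a subunit of the calcitonin-family receptors, were the named genes outside chromosome 7 called in middle against low class. Ramp3 was 0.14 lower in the middle than in the low class (adjusted p = 0.00693). Myorg, a glycosidase named after its values were seen, was called over bands with a slope of 0.071 (adjusted p = 5.55e-07).

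Probes of other ribosomal protein genes were called more often than all probes over the classes, and 0 were called over the bands. The bands come from the class-defining minus the second Rps3 probe, which removes variation that both share. The second probe was itself correlated with these probes within classes, as given below. The band counts therefore cannot show whether these genes vary with Rps3. Of 164 probes for 39 ribosomal protein genes other than Rps3, 77 rose and 8 fell with class (51.8%, against 34.5% of all probes), with a median slope of 0.037 against -0.0064 over all probes. By subunit, 18 rose and 2 fell of 50 small-subunit probes (10 genes), and 59 rose and 6 fell of 114 large-subunit probes (29 genes), so several probes share a gene. The calls lay in the upper step. High against middle called 81 higher and 16 lower (59.1%, against 46.1%). Middle against low called 0 in limma, with a median difference of 0.0035. In that step 0 had an unadjusted p under 0.05, against 836 of all 23189 probes. Over bands 0 of 164 passed in limma (0.906% of all probes did), with a median slope of 0.0042 and 14 at an unadjusted p under 0.05, against 2480 of all 23188 probes. In high against middle band 0 passed as well, but 44 had an unadjusted p under 0.05, against 3904 of all 23188 probes. With 10 components 0 passed, with 9 at an unadjusted p under 0.05, against 2267 of all 23189 probes. Without the lymphocyte-rich arrays 13 rose and 0 fell with class (7.93%, against 3.47% of all probes), and high against middle called 54 higher and 7 lower (37.2%, against 20.1%).

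Rpl12 had the lowest p among them. Its lowest, median and highest log2 ratios were -0.65, -0.26 and 0.61 in the low class, -0.68, -0.25 and 0.83 in the middle class, and -0.47, 0.049 and 1.56 in the high class. The low and middle classes lay level and only the high class was shifted, with most of its range shared. The slope was 0.17 ± 0.026 (adjusted p = 2.19e-08), the step of high over middle 0.34 (adjusted p = 6.65e-12) and that of middle over low -0.021 (adjusted p = 1). Per band the slope was 0.042 (adjusted p = 0.597).

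Rpl3, a large-subunit protein close to the catalytic centre, had medians of -0.71, -0.75 and -0.34 in the low, middle and high classes, with a slope of 0.31 ± 0.049 (adjusted p = 1.74e-07) and 0.097 per band (adjusted p = 0.507). Rpl21 (0.11), Rpl38 (0.14 and 0.15 on its probes) and Rps18 (0.097) rose with class as well, and Rpl29 fell by 0.062 (adjusted p = 0.00424). The called probes of Rps7 opposed each other, with slopes of -0.10 (adjusted p = 4.92e-06) and 0.12 (adjusted p = 4.25e-05), so no direction is given for that gene.

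Within classes both Rps3 probes were set against the other ribosomal protein probes. The class-defining probe has its range limited within a class by the rule, and the second probe has not, so their values are not compared. The median correlation with the 164 probes was 0.405 in the low, 0.379 in the middle and 0.356 in the high class for the second probe, and 0.328, 0.0571 and 0.169 for the class-defining probe (n = 74, 149 and 96 arrays). The median over all probes with the class-defining probe was -0.0077, 0.011 and -0.032. Without the lymphocyte-rich arrays the low class gave 0.345 for the second and 0.338 for the class-defining probe (n = 66). These correlations share arrays and pool and are given as a description. The fit of each probe on the Rps3 level with class as a factor uses the values that made the classes, so its counts are descriptive and support nothing here. It gave 11650 calls (50.2%), and 72 with 10 components (0.31%), of which 35 lay on chromosome 7 (3.37%).

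**Figure D5:**
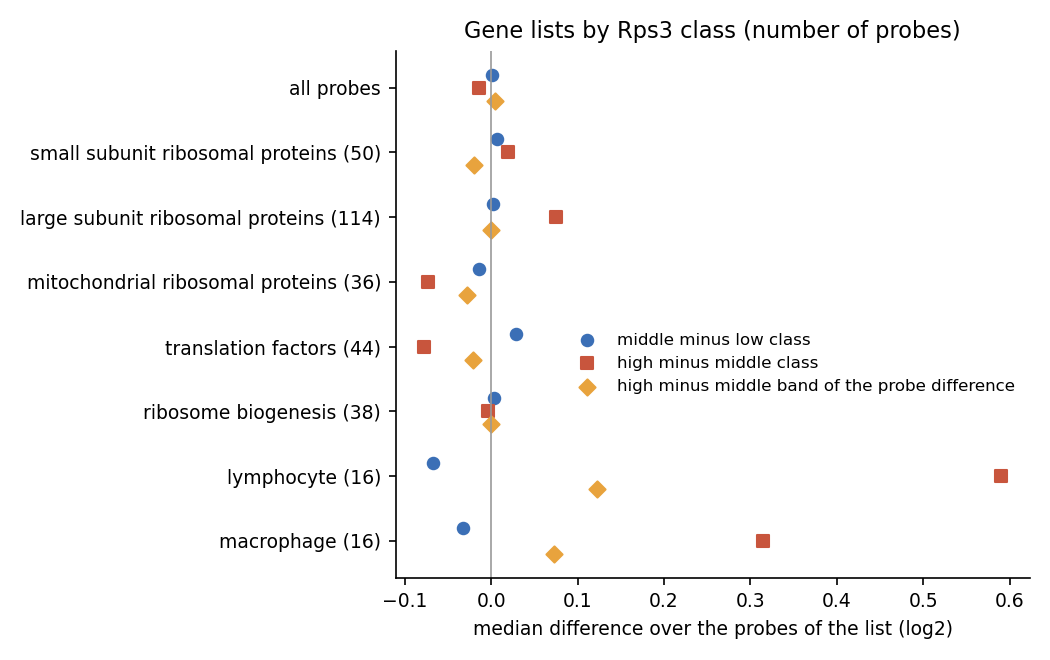
Median log2 difference of each gene list (horizontal axis; lists with their number of probes down the page) for middle minus low class, high minus middle class and high minus middle band. The lymphocyte and macrophage lists stand highest in high minus middle class, where the small-subunit and large-subunit ribosomal protein lists are slightly above 0. These lists lie closer to 0 in middle minus low class.

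Other lists around the ribosome are read against the 34.5% of all probes called, 14.8% higher and 19.7% lower. Of 36 mitochondrial ribosomal protein probes 0 rose and 21 fell (58.3%), among them Mrpl10 (-0.087 ± 0.014) and Mrpl37 (-0.11 ± 0.022), neither called over bands (adjusted p = 0.412 and 0.378). The list's 3 calls over bands were 2 probes of Mrpl48, 22 genes after Rps3, and 1 of Mrps12, 669 genes before it, with slopes of -0.10, -0.10 and -0.15, while another Mrpl48 probe did not pass (-0.019, adjusted p = 0.761). Of 44 translation factor probes 4 rose and 13 fell (38.6%, near the share of all probes), and 0 passed over bands (2 at an unadjusted p under 0.05). In high against middle class 5 rose and 25 fell (68.2%, against 46.1% of all probes). Without the lymphocyte-rich arrays that step called 2 higher and 12 lower (31.8%, against 20.1%). The elongation factor Eef1b2 (0.090) and the initiation factor Eif3h (0.072) were among the fewer risers over classes. The slope of Eef1b2 turned to -0.010 with 10 components and to -0.0027 over bands. Of 38 ribosome biogenesis probes 7 rose and 4 fell with class (28.9%). Of 38 probes for kinases and partners of Rps3 4 rose and 12 fell (42.1%), both near the 34.5% of all probes. Over bands limma called 0 in either list, with 7 and 4 at an unadjusted p under 0.05, against 2480 of all 23188 probes.

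Markers of several other cell types moved with the classes, where 34.5% of all probes were called. Of 16 lymphocyte probes 15 rose and 1 fell, of 16 macrophage probes 11 rose (68.8%), and of 12 adipocyte probes 6 rose and 2 fell (66.7%). Of 12 neutrophil probes 4 rose and 0 fell (33.3%), where 14.8% of all probes rose and 34.5% were called in either direction. Cd3d, part of the T cell receptor complex, had medians of -1.65, -1.67 and -1.23 in the low, middle and high classes and was 0.98 higher in the high than in the middle class (adjusted p = 2.22e-10). Cd8a (0.37) and Cd3e (0.28), other T cell genes, and Cd68 (0.10), a macrophage protein, were also higher in that step. Middle against low in limma called 0 of the 16 lymphocyte and 0 of the 16 macrophage probes. In either list 0 had an unadjusted p under 0.05, against 836 of all 23189 probes. The band trend in limma called 0 of either. At an unadjusted p under 0.05 it had 1 lymphocyte and 0 macrophage probes, against 2480 of all 23188 probes. Pygm fell by 0.089 ± 0.018 per class (adjusted p = 1.73e-05) and was not called over bands (adjusted p = 0.648). Keratinocyte (1 higher, 1 lower of 15), erythroid (1 lower of 6), liver (0 of 9) and slow fibre (1 of 14) probes seldom passed. The part of these cell types in the class calls was not tested.

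Other genes whose levels had shown 3 groups did not pass the test over classes, where 34.5% of all probes passed. Ifi202b, an interferon-inducible gene, had a slope of 0.15 (adjusted p = 0.133), Hars, a transfer RNA synthetase, 0.037 (adjusted p = 0.207), Wtap, part of the RNA methylation complex, -0.028 (adjusted p = 0.41), Ipo8, a nuclear import factor, -0.024 (adjusted p = 0.568), and Nprl2, a regulator of mTORC1, 0.0059 (adjusted p = 0.875). Hars was called by limma in high against middle (0.12, adjusted p = 0.00758). In that step 1 of the 6 probes of these genes was called (16.7%), against 46.1% of all probes.

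The labels give no date, and animal number was the only label that orders the arrays. Of the low, middle and high classes, 35, 72 and 53 arrays had a number up to the median of 192, and 39, 77 and 43 had a higher one. Fitted apart, the arrays up to the median gave 6846 calls over classes, 349 of them on chromosome 7, and those above it gave 938, 100 of them on chromosome 7. Most of the 57 arrays rich in lymphocyte transcripts had a number up to the median. Without these 57 the class trend gave 804 calls, against 7995 on all arrays. Their part in the contrast of low and high numbers was not tested. A difference in class slope between arrays of higher and lower number was called for 0 of 23189 probes by limma (0%, with a lowest adjusted p of 0.0906), although 4449 had an unadjusted p under 0.05. With 10 components 0 were called too, with 1074 at an unadjusted p under 0.05.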

How the data were processed

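Muscle RNA of F2 animals was compared with a common pool on 319 2-colour arrays, of which 2 share an animal number and were kept. Deposited values are log10 ratios, 1 for each probe on each array, made by the authors in steps not given in the sources used here, and the base was read from the limits of -2 and 2 in the deposited values, and the ratios were converted to log2. Arrays have no read depth, and precision depends only in part on how many arrays there are. Of 23382 probes, 23190 had values on at least 80% of arrays. By the platform annotation, 13639 probes had 1 symbol, 48 had several and 9695 had none. RefSeq (GRCm38.p6) placed 12958 of all probes, for 10990 genes, and served for names, gene order and promoters. The build of the probe design was not used. Missing values (0.654%) were left missing.

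The rule placed arrays in classes, and limma 3.58.1 (R 4.3.3) fitted each other probe on class, with Benjamini-Hochberg adjustment over all probes and a threshold of 0.05. Of the fits, only the class trend was tested on simulated data, with noise drawn independently for each probe and array. The simulated data thus lacked the correlation between arrays seen in the real data. Summaries used Python 3.11.15, pandas 2.3.3 and numpy 2.4.6, and figures matplotlib 3.10.9. The members, lists and tests were chosen with earlier results of these data known. Named genes are all Rps3 probes, the 15 genes of lowest p on chromosome 7 and on other chromosomes, called ribosomal protein genes and the 3 of highest and lowest slope per subunit, up to 4 called genes of each other list, 5 measured neighbours on each side of Rps3 and 5 other genes with 3 groups. Ribosomal protein genes beyond those named are given as counts. Steps between classes as results of their own, bands, 10 components (55.8% of variance) and leaving out lymphocyte-rich arrays were added after seeing the data.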

Additional observations from a re-analysis of the deposited data

How the results depend on the processing

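The class trend called 7995 probes, 400 on chromosome 7, 4145 on other chromosomes and 85 for ribosomal proteins. These counts moved with the handling of variation shared by arrays, the arrays used and the threshold. In the same order they were 550, 112, 198 and 10 after removal of principal component 1, 938, 100, 381 and 33 on the arrays above the median animal number alone, 344, 126, 76 and 0 with 10 components as covariates, 804, 129, 310 and 13 without lymphocyte-rich arrays, 210, 90, 33 and 0 over bands, and 58, 36, 2 and 0 at an adjusted p under 1e-10. The 6051 probes off the midpoint became 4 after removal of component 1, 3 with 10 components, 7 without lymphocyte-rich arrays and 3 over bands. The 11650 probes that followed Rps3 within class became 6575 with quantile normalization and 72 with 10 components. Middle against low, with 67 calls, gave 105 with quantile normalization and 132 with 10 components. High against middle, with 10690, gave 3819 after removal of component 1, 123 with 10 components, 4672 without lymphocyte-rich arrays and 136 over bands. The cause of these shifts was not tested. The 160 arrays up to the median animal number, against 159 above it, gave 6846, 349, 3538 and 74, and leaving out the 2 arrays of the shared number gave 8258 calls in all. Among the named genes, the sign turned with 10 components for the second Rps3 probe (-0.087, adjusted p = 1.72e-12), 1 Rps7 probe (-0.013), Eef1b2 (-0.010, and -0.0027 over bands) and another Mrpl48 probe (0.019). Of 1238 values of named genes under alternatives, 1092 kept direction and side of the threshold. That count pools settings close to the main fit with settings far from it. With limit values set to missing all 78 named genes or probes kept both. With 10 components as covariates 42 of 78 did, and over bands 43 did. No paired analysis was possible because all arrays form 1 group. A dim probe could not be set apart from a bright one, since only ratios were used here.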
